A study of Mus musculus with 6 samples.

Results

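The integrin and laminin genes of the mouse were followed in myometrium, the muscle wall of the uterus, with and without Tcf23. Genes were taken by symbol, as every integrin alpha or beta chain and every laminin alpha, beta or gamma chain in the deposited table, which gave 37 of 55055 genes, 26 integrins and 11 laminins. The symbols alone set the membership. Poly(A)-selected RNA came from pregnant mice labelled E19.5 (gestational day 19 in the series design), 3 wild-type animals (TCF23 WT) and 3 animals with a CRISPR/Cas9 knockout of the basic helix-loop-helix gene Tcf23 (TCF23 KO), 1 library per animal. The comparison asks how the late-pregnant uterine muscle differs when TCF23 is absent. The sources used here give neither strain, maternal age, the form of the deleted allele nor the number of founder lines.

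Integrins are pairs of 1 alpha and 1 beta chain that span the cell membrane. Outside the cell they bind matrix proteins or receptors on other cells, and inside it they are linked through talin, kindlin and vinculin to actin, so that in smooth muscle they carry force between the contractile filaments and the matrix. Beta 1 pairs with most alpha chains of muscle and connective tissue, beta 2 and beta 7 are the beta chains of white blood cells, and beta 4 anchors epithelia. Laminins are trimers of 1 alpha, 1 beta and 1 gamma chain that form the sheet-like core of basement membranes, including the one around each smooth muscle cell, and are themselves integrin ligands.

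Total counts ran from 39939686 to 65036402 per library. Tcf23 had 4203, 5970 and 3360 counts in wild-type replicates 1, 2 and 3 and 0, 2 and 1 in knockout replicates 1, 2 and 3, so 6 of 6 libraries matched their labels. Summed smooth muscle markers (7 genes, CPM relative to total counts, where CPM is the count of a gene per 1000000 counts of its library) were 26250 to 29700 in wild-type and 32320, 36540 and 14810 in knockout replicates 1, 2 and 3. Of those markers Tagln stood at only 35.65 to 82.42 CPM against 3703 to 8509 for Acta2. The knockout libraries also differed in trophoblast markers (289.5, 9.489 and 0.4757 CPM summed over 6 genes, against 26.38 to 39.03 in wild-type). The sum of decidua markers (3 genes) was higher in every knockout library, at 51.25 to 111.2 CPM against 28.22 to 47.65. Of these genes only Prl8a2 separated the groups (3.66 to 16.89 CPM in wild-type and 23.66 to 80.89 in knockout), and Wnt4 and Bmp2 overlapped. Skeletal muscle markers (4 genes) ran from 49.25 to 163.7 against 26.74 to 51.64.

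Of the 37 genes, 36 had enough counts to be tested, and the one left out was Itgad. In edgeR's quasi-likelihood test, adjusted over all 19599 genes tested, 0 integrin or laminin genes were called higher and 0 lower at an adjusted p under 0.05, where 0% of all tested genes were called higher and 0.0204% lower. The smallest adjusted p among them was 0.236, for Itgal. Log2 changes (knockout minus wild-type) were positive for 24 and negative for 12 of the 36, where 52.1% of all tested genes were positive. A fit that also held the replicate number called 2 genes of the whole table higher and again 0 of the integrins and laminins. At an unadjusted p under 0.05, 5 were higher (Itgal, Lamc3, Itga10, Itgb7 and Itgax) and 2 lower (Itgb3 and Itga2), beside a background of 5.27% higher and 3.29% lower. DESeq2 called 3 of them higher (Itgal, adjusted p = 0.000846, Lamc3, 0.015, and Itga10, 0.0295) and 0 lower, with a background of 1.27% and 0.704%. Every library of one genotype lay beyond every library of the other for 8 of the 36, 5 higher and 3 lower in knockout (background 7.22% and 7.01%). Those 8 were Itgal, Itgax, Itgb7, Itga10 and Lamc3 on the higher side and Itgb3, Itga11 and Lamb1 on the lower side. The remaining 28 had overlapping groups.

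**Figure D1:**
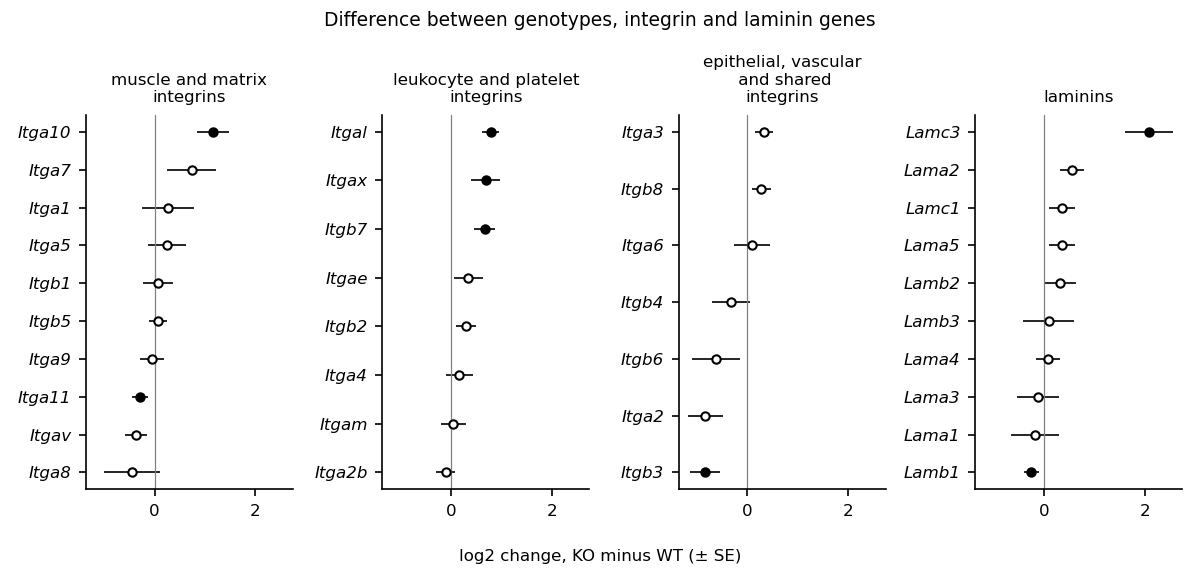
Each point is the fitted log2 change (knockout minus wild-type) of 1 tested gene (1 laminin is not shown), the horizontal bar is ± 1 SE, and filled points mark genes whose 3 knockout libraries all lay beyond the 3 wild-type libraries. Lamc3 is farthest to the right at 2.08 and Itgb3 and Itga2 farthest to the left at −0.83.

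The beta 3 chain showed the clearest lower values. Itgb3 (ENSMUSG00000020689, mm10 chromosome 11, 104608000 to 104670476, plus strand) encodes the chain that pairs with alpha v to bind RGD-containing matrix proteins such as vitronectin, fibronectin and osteopontin, and with alpha IIb in platelets. It stood at 374.6, 363.8 and 331.4 CPM in wild-type replicates 1, 2 and 3 and at 186.2, 292.1 and 122.5 in knockout replicates 1, 2 and 3. All knockout libraries lay below all wild-type libraries, with the knockout libraries the more spread (356.6 ± 22.5 against 200.3 ± 85.7 CPM, mean ± SD, n = 3 each). The log2 change was −0.83 ± 0.30 (SE), with an unadjusted p of 0.0245 and an adjusted p of 0.48 in edgeR, and an adjusted p of 0.184 in DESeq2. CPM of single genes are on TMM-scaled library sizes, and sums of markers on total counts.

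Within a library, Itgb3 also took a smaller part of all beta chain RNA in knockout. Levels per kilobase of exon were summed over the 8 beta chain genes, and the share of each chain was taken within its own library, which removes the scaling between libraries. The share of Itgb3 was 11%, 11.7% and 11.2% in wild-type replicates 1, 2 and 3 and 6.66%, 6.93% and 5.31% in knockout replicates 1, 2 and 3. The spread within a genotype was small beside the gap (11.3 ± 0.34% and 6.3 ± 0.87%, mean ± SD, n = 3). The difference was −4.98 percentage points. This share was singled out after its values were seen, so it is given as a description without a test. Itgb1, which made up most of the beta chain sum, and Itgb3 itself were both highest in knockout replicate 2 and lowest in replicate 3 among the knockout libraries, as were the smooth muscle markers, and the part of muscle content in the share was not tested. Platelet and megakaryocyte markers (5 genes, Pf4 the largest part) summed to 41.57 to 70.32 CPM in wild-type and 39.34 to 57.11 in knockout. Itga2b, the platelet partner of beta 3 and itself 1 of these markers, had a log2 change of −0.11 ± 0.20.

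**Figure D2:**
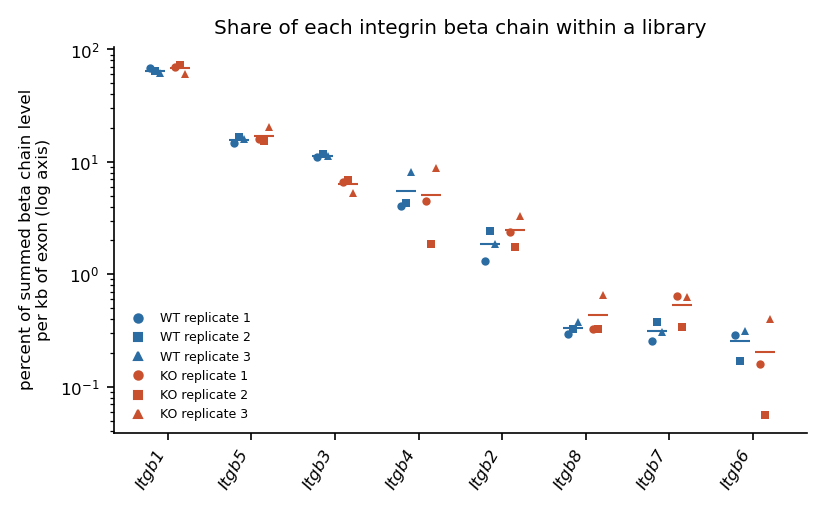
Each symbol is 1 library, and the vertical log axis gives the percent of the summed beta chain level per kilobase of exon that 1 chain takes in that library, with bars at the mean of each genotype. Itgb1 takes 60.3 to 73.5% in all 6 libraries, and Itgb3 is the chain for which knockout (5.31 to 6.93%) lies clear below wild-type (11 to 11.7%).

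Alpha v, the main partner of beta 3 outside platelets, was measured at 172.2, 147.7 and 180.5 CPM in wild-type and 90.8, 149.2 and 148.2 in knockout replicates 1, 2 and 3 (gene Itgav). Only knockout replicate 1 lay clear below the wild-type range, and replicates 2 and 3 overlapped it (log2 −0.37 ± 0.21, edgeR adjusted p = 0.743). Itgb5, another partner of alpha v, had overlapping groups. It stood at 299, 313.1 and 285.7 CPM in wild-type replicates 1, 2 and 3 and at 266.9, 386.1 and 284 in the knockout replicates (log2 0.06 ± 0.18, edgeR adjusted p = 0.971). Itgb8, which with alpha v activates latent TGF-beta, had 18.97, 19.04 and 20.73 CPM in wild-type and 17.21, 25.66 and 28.51 in knockout, overlapping. Itgb6, an epithelial partner of alpha v with the same activity, was at 11.9, 6.398 and 11.19 CPM in wild-type and 5.316, 2.849 and 11.07 in knockout.

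Among the 10 integrins of muscle and matrix, the coefficient of variation (SD over mean) was larger in knockout than in wild-type for 9, with Itga11 the exception. The same held for 79.1% of all tested genes with a mean CPM of at least 1. Log2 changes were positive for 6 and negative for 4, with a median of 0.06 against 0.01 over all tested genes, and the median was −0.23 without knockout replicate 2 and −0.045 with the replicate number as a block. None was called in edgeR, and 1 (Itga10) was higher at an unadjusted p under 0.05, as were 5.27% of all tested genes. Knockout replicate 2 held the highest of the 6 values for 7 of the 10 genes, and knockout replicate 3 the lowest for 6. Over all tested genes those libraries held the highest value for 22.2% and the lowest for 20%. Smooth muscle markers followed the same order, highest in knockout replicate 2 and lowest in replicate 3, and their part in these values was not tested. In bulk tissue, fewer cells of a type and less RNA per cell cannot be told apart.

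Beta 1, the common partner, was the most abundant integrin per kilobase of exon (348 ± 42.4 CPM per kb in wild-type, n = 3). Itgb1 had 1607, 1382 and 1267 CPM in wild-type and 1344, 2145 and 963.3 in knockout. In that order the knockout libraries lay within, above and below the wild-type range (log2 0.07 ± 0.30, edgeR adjusted p = 0.985). Alpha 5, which with beta 1 forms the fibronectin receptor, was the most abundant alpha chain per kilobase (181 ± 13.3 CPM per kb in wild-type) and made up 55.6 to 62% of the summed alpha chain level there. Itga5 had 832.2, 962 and 881.6 CPM in wild-type and 1349, 1369 and 467.9 in knockout. Replicates 1 and 2 of the knockout were above every wild-type library and replicate 3 below, and the log2 change was 0.25 ± 0.38 (edgeR adjusted p = 0.934), or 0.03 without knockout replicate 2 and 0.61 without replicate 3.

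Itga1, a collagen and laminin receptor chain typical of smooth muscle, and Itga8, a receptor chain for nephronectin, fibronectin and other RGD ligands, shared a pattern in the knockout. Itga1 had 317.1, 263.7 and 278.7 CPM in wild-type and 177.9, 677.3 and 173 in knockout. Itga8 had 268.4, 187.7 and 199 CPM in wild-type and 83.47, 325.5 and 70.43 in knockout. For both genes knockout replicates 1 and 3 lay below all wild-type libraries and replicate 2 above them. Without knockout replicate 2 the log2 changes were −0.70 for Itga1 and −1.50 for Itga8, against 0.26 ± 0.51 and −0.45 ± 0.56 with all 6 libraries. Neither passed the edgeR test in any of these fits (adjusted p = 0.957 and 0.916 with all libraries).

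Itga7, the laminin receptor chain of muscle, had 27.39, 16.11 and 13.13 CPM in wild-type and 28.51, 52.47 and 13.07 in knockout, again with replicate 2 on top (log2 0.73 ± 0.49, edgeR adjusted p = 0.78). Without that library the log2 change of Itga7 was 0.15. Itga9, which binds tenascin-C and osteopontin among others, had 69.49, 71.97 and 61.23 CPM in wild-type and 77.61, 76.75 and 42.07 in knockout, overlapping (log2 −0.05 ± 0.24).

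The collagen receptor chains alpha 10, best known from cartilage, and alpha 11, of fibroblasts, lay on opposite sides. Itga10 (chromosome 3, 96645584 to 96664519, plus strand) had 5.809, 7.053 and 7.065 CPM in wild-type and 9.683, 22.61 and 12.27 in knockout. All knockout libraries were higher, a 2.24-fold difference (log2 1.16 ± 0.32, edgeR adjusted p = 0.34), and without knockout replicate 2 the log2 change was 0.73. Itga11 had 13.14, 15.82 and 12.11 CPM in wild-type and 10.49, 11.54 and 11.66 in knockout. Its groups did not overlap, but by a narrow gap (log2 −0.29 ± 0.15, edgeR adjusted p = 0.703). Fibroblast markers (4 genes) summed to 8784 to 13840 CPM in wild-type and 8531 to 11410 in knockout. Of these genes Dcn (2803 to 3688 CPM in wild-type, 2213 to 2686 in knockout) and Lum (673.4 to 948.7 and 488 to 561) were lower in all knockout libraries. Col1a1, the largest part of the sum, and Pdgfra overlapped. The part of fibroblasts in the integrin values was not tested.

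**Figure D3:**
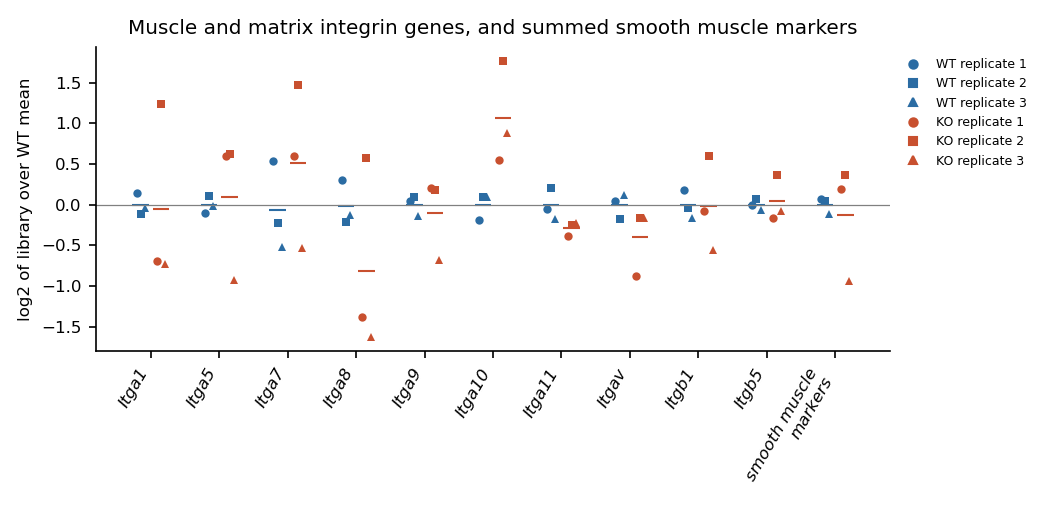
Each symbol is 1 library, plotted as the log2 of its CPM over the wild-type mean of that gene, for the 10 muscle and matrix integrin genes and, at the right, for the sum of 7 smooth muscle markers. Bars are means of the 3 plotted values per genotype. Knockout replicate 2 (squares) is on top for 7 genes and for the markers, and knockout replicate 3 (triangles) is lowest for 6 genes and for the markers.

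Knockout replicate 2 held the highest value for 0 of the 8 tested leukocyte integrins. Of the 8 tested genes (the ninth, Itgad, had 0 to 6 counts per library), 7 had positive log2 changes and 1, Itga2b, a negative one. The median was 0.32 against 0.01 over all tested genes, and 0 were called in edgeR. At an unadjusted p under 0.05, 3 of the 8 were higher, beside 5.27% of all tested genes. Itgal (ENSMUSG00000030830, chromosome 7, 127296260 to 127335138, plus strand) encodes the alpha chain of LFA-1, by which lymphocytes and other white blood cells bind ICAMs. It had 4.909, 5.704 and 5.673 CPM in wild-type and 9.248, 8.853 and 9.974 in knockout. The knockout libraries lay close together and above every wild-type library, 1.72-fold higher on fitted values (log2 0.78 ± 0.16 SE, edgeR unadjusted p = 0.00149, adjusted p = 0.236). Leaving out any 1 library kept its log2 change between 0.72 and 0.83.

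Itgb7, the beta chain of lymphocyte homing integrins, and Itgax, the CD11c chain of dendritic cells and macrophages, also separated the genotypes. Itgb7 (chromosome 15, 102215995 to 102231944, minus strand) had 4.073, 5.453 and 4.264 CPM in wild-type and 8.393, 6.725 and 6.755 in knockout (log2 0.67 ± 0.20, edgeR adjusted p = 0.387). Itgax (chromosome 7, 128129547 to 128150657, plus strand) had 5.166, 3.16 and 6.851 CPM in wild-type and 7.911, 7.482 and 9.121 in knockout (log2 0.69 ± 0.29, edgeR adjusted p = 0.562). Both genes were higher in 3 of 3 knockout libraries than in any wild-type library, with the narrower gap for Itgax. Of all tested genes 7.22% were separated in this direction.

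The partners and neighbours of these chains did not all follow. Itgb2, the beta chain shared by alpha L, M, X and D, had 23.11, 39.43 and 28.63 CPM in wild-type and 34.37, 38.17 and 39.63 in knockout, overlapping (log2 0.30 ± 0.20). Itgam, the CD11b chain of macrophages and neutrophils and the neighbour of Itgax on chromosome 7, had 46.19, 74.79 and 48.83 CPM in wild-type and 42.85, 61.17 and 70.94 in knockout. Its groups overlapped throughout (log2 0.04 ± 0.25, edgeR adjusted p = 0.99). Itga4, the partner of beta 7 and beta 1 on white blood cells, had 16.44, 20.23 and 16.25 CPM in wild-type and 12.2, 23.58 and 23.68 in knockout (log2 0.17 ± 0.26). Itgae, the E-cadherin-binding chain of lymphocytes within epithelia, had 1.308, 0.8672 and 1.677 CPM in wild-type and 1.616, 1.623 and 1.658 in knockout, and Haspin, which lies in it on the opposite strand without shared exon bases, had 189% of its counts. Itga2b had 9.946, 10.98 and 9.527 CPM in wild-type and 11.92, 7.825 and 8.487 in knockout.

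Markers of several white blood cells stood beside these values. Summed natural killer and T cell markers (8 genes) were 6.173 to 8.427 CPM in wild-type and 12.99 to 19.9 in knockout, and neutrophil markers (6 genes) 6.717 to 10.68 and 20.18 to 31.14, neither list overlapping between genotypes and 0 of their genes at 0 in any library. Macrophage markers (7 genes) overlapped, at 973.8 to 1363 CPM and 1087 to 1350, as did general leukocyte markers (4 genes) at 169.7 to 231.7 and 226.1 to 268. Mast cell markers (5 genes) went the other way, at 105.3, 161.5 and 91.14 CPM in wild-type replicates 1, 2 and 3 and 97.27, 43.47 and 43.22 in the knockout replicates. The part of these cells, and of the decidua and skeletal muscle markers above, in the integrin values was not tested. The median coefficient of variation of the 8 leukocyte integrins was 21.8% in wild-type and 11.7% in knockout, while that of the muscle and matrix integrins was 10.5% and 43.3%. Over the 15054 tested genes with a mean CPM of at least 1 it was 9.74% and 19.3%.

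**Figure D4:**
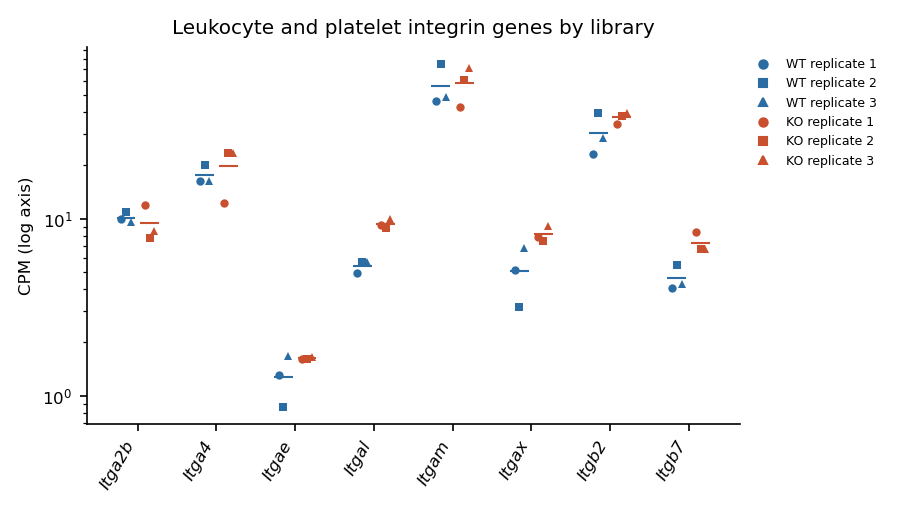
Each symbol is the CPM of 1 library on a log axis, with bars at the mean of the 3 libraries of a genotype, for the 8 tested leukocyte and platelet integrin genes. Knockout lies above wild-type without overlap for Itgal, Itgax and Itgb7 and overlaps it for the other genes.

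Integrins of epithelia and shared use, Itgb3 included, had 3 positive and 4 negative log2 changes (7 genes, median −0.32, 0 called in edgeR). The median was 0.006 without wild-type replicate 3. At an unadjusted p under 0.05, 2 of the 7 were lower, beside 3.29% of all tested genes. Itga2, a collagen receptor chain of epithelia and platelets, lies next to Itga1 on the minus strand of chromosome 13 (114833081 to 114932100, with Itga1 at 114953096 to 115101964). It had 81.24, 57.52 and 109.8 CPM in wild-type and 28.52, 44.35 and 66.99 in knockout. Knockout replicate 3 overlapped the wild-type range and the other two lay below it (log2 −0.83 ± 0.34, edgeR unadjusted p = 0.0441, adjusted p = 0.561). The neighbours thus differed in knockout replicate 2, where Itga1 was at its highest and Itga2 was below all wild-type libraries.

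Itgb4 and Itga6, which pair in the hemidesmosomes that fix epithelia to laminin, were highest in replicate 3 of each genotype. Itgb4 had 164.1, 159.1 and 287.1 CPM in wild-type and 149.1, 94.15 and 244.6 in knockout. Itga6 had 81.2, 71.51 and 107.4 CPM in wild-type and 53.64, 75.47 and 148.2 in knockout. Summed epithelial markers (6 genes) were 1557, 1016 and 2314 CPM in wild-type and 1787, 593.1 and 3107 in knockout, and also highest in replicate 3 of each genotype. The groups overlapped for Itgb4, Itgb6, Itga2 and Itga6. The labels state no pairing of libraries. With the replicate number as a block the log2 changes of these genes, in that order, were −0.38, −0.78, −0.86 and −0.02. Their edgeR adjusted p in that fit were 0.541, 0.408, 0.291 and 0.992. The part of epithelial cells in the integrin values was not tested. Itga3, the laminin receptor chain that pairs with beta 1, had 83.68, 81.99 and 120.8 CPM in wild-type and 128.2, 110.4 and 122.9 in knockout, overlapping (log2 0.34 ± 0.18, edgeR adjusted p = 0.704).

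Laminin chains gave 1 gene of 11 with separated groups on each side, Lamc3 (higher) and Lamb1 (lower). Over all tested genes 7.22% were separated on the higher side and 7.01% on the lower, so 1 gene is near the background. Of the 11 genes, 8 had positive and 3 negative log2 changes, with a median of 0.25 against 0.01 over all tested genes, and of 0.08 without knockout replicate 2. None was called in edgeR, and 1 (Lamc3) was higher at an unadjusted p under 0.05, as were 5.27% of all tested genes. Per kilobase of exon the leading chains were alpha 5 and alpha 4, beta 2 and beta 1, and gamma 1 in both genotypes, the chains of the laminins of smooth muscle and blood vessels. In wild-type Lama5 made up 51.1 ± 4.5% of the summed alpha chain level, Lama4 31.9 ± 6.7%, and Lamb2 57 ± 0.41% of the beta chains (mean ± SD, n = 3). The knockout values of these shares were 55.7 ± 2.7%, 28.9 ± 4.9% and 63.4 ± 12%.

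Among alpha chains, Lama5 had 308.4, 307.1 and 414 CPM in wild-type and 312.4, 590.8 and 411.1 in knockout (log2 0.35 ± 0.26), and Lama4, the chain of vascular and muscle basement membranes, 212.8, 263.9 and 194.9 and then 208.4, 321.9 and 182.8. Knockout replicate 2 was the highest for both, and the other knockout libraries lay within or just below the wild-type range. Lama2, the chain of muscle and nerve laminin whose loss causes a muscular dystrophy, had 27.52, 47.04 and 31.45 CPM in wild-type and 40.27, 55.1 and 61.26 in knockout. Only knockout replicate 1 overlapped wild-type, and the log2 change of Lama2 was 0.56 ± 0.24 (edgeR unadjusted p = 0.0504, adjusted p = 0.584). Lama1, best known from early embryos and kidney, had 22.96, 19.19 and 23.35 CPM in wild-type and 11.33, 36.91 and 9.633 in knockout, with knockout replicate 2 above and the others below all wild-type libraries.

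Lama3 and Lamb3 encode laminin chains of epithelia. Lama3 had 49.64, 41.39 and 88.81 CPM in wild-type and 39.09, 38.24 and 88.96 in knockout, and Lamb3 had 36.48, 28.42 and 62.67 and then 41.1, 18.32 and 77.7. Both were highest in replicate 3 of each genotype, as were the epithelial markers. Lamb3 overlaps Hsd11b1, on the opposite strand and without shared exon bases in GENCODE M21, and the latter had 1220% as many counts.

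Laminin beta 1, of many basement membranes, was the chain with lower values in all knockout libraries. Lamb1 (ENSMUSG00000002900, chromosome 12, 31265234 to 31329644, plus strand) had 392.9, 442.9 and 384.1 CPM in wild-type and 337.8, 368.1 and 322.8 in knockout (log2 −0.25 ± 0.14, edgeR adjusted p = 0.742). Lamb2, the beta chain of mature muscle and synaptic basement membranes, had 359.4, 392.3 and 396.1 CPM in wild-type and 424.8, 727.1 and 289.3 in knockout, overlapping, with a log2 change of 0.33 that was −0.10 without knockout replicate 2. Lamc1 had 457.1, 549.2 and 461.7 CPM in wild-type and 485, 888.2 and 516.8 in knockout (log2 0.36 ± 0.26). That gene showed overlapping groups, with knockout replicate 2 the highest, and the log2 change was 0.04 without it.

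Lamc3, a minor gamma chain, was higher at a very low level. Lamc3 (chromosome 2, 31887291 to 31946539, plus strand) had 12, 5 and 15 counts in wild-type and 48, 35 and 53 in knockout, or 0.2572, 0.0964 and 0.2676 CPM against 0.7461, 0.631 and 1.293. All knockout libraries were higher, a 4.23-fold fitted difference (log2 2.08 ± 0.47, edgeR unadjusted p = 0.0028, adjusted p = 0.29, and DESeq2 adjusted p = 0.015).

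**Figure D5:**
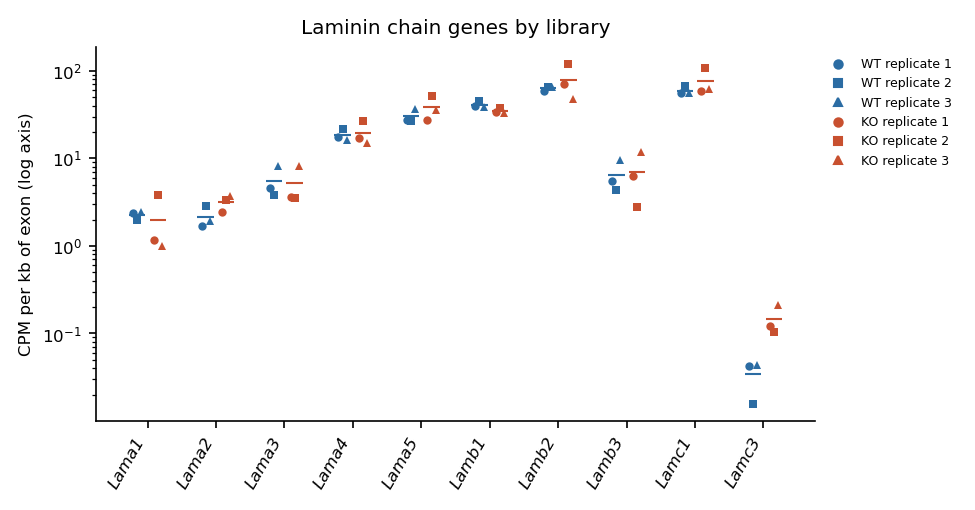
Each symbol is 1 library, and the log axis gives CPM per kilobase of exon for 10 laminin chain genes, with bars at the mean of the 3 libraries of a genotype. Lamc1, Lamb2, Lamb1 and Lama5 lead in both genotypes, and Lamc3 lies lowest, at 0.0158 to 0.0439 in wild-type and 0.104 to 0.212 in knockout.

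Other genes of the adhesion pathway were taken from 4 lists, which were chosen with earlier results of these data known. Counts in these lists set beside all tested genes are therefore a description and not a test of enrichment. In each list 0 genes were called in either direction by edgeR or DESeq2. At an unadjusted p under 0.05 in edgeR there were 4 lower matrix ligands, 1 higher linker, 1 higher counter-receptor and 0 basement membrane genes, where 3.29% of all tested genes were lower and 5.27% higher. Of the 16 tested matrix ligands of integrins, 8 had positive and 8 negative log2 changes (median 0.01). Of these ligands 4 had lower values in all knockout libraries (7.01% of all tested genes did), namely Thbs1, Tnc, Ltbp1 and Fn1 (Fn1 and Spp1 are named after their values were seen). Thbs1, which encodes thrombospondin-1, had 1511, 965.5 and 1041 CPM in wild-type and 254.1, 757.8 and 189.1 in knockout (log2 −1.55 ± 0.52, edgeR adjusted p = 0.435). Tnc, the gene of tenascin-C, had 737.5, 371.6 and 317.8 CPM in wild-type and 190.7, 287.3 and 95.57 in knockout (log2 −1.31 ± 0.46, edgeR adjusted p = 0.467). Ltbp1, whose product holds latent TGF-beta in the matrix, had 323.8, 208.6 and 206.9 CPM in wild-type and 99.24, 165 and 59.33 in knockout (log2 −1.19 ± 0.37, edgeR adjusted p = 0.409).

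Fn1, the gene of fibronectin, had 18680, 16100 and 15800 CPM in wild-type and 9140, 15260 and 4148 in knockout (log2 −0.82 ± 0.45, edgeR adjusted p = 0.705). In Fn1, Thbs1, Tnc, Ltbp1 and Itgb3 alike, knockout replicate 3 was the lowest library and knockout replicate 2 the nearest to wild-type. Ccn2, a matricellular ligand, had a log2 change of −0.73 ± 0.30 (edgeR adjusted p = 0.567) with overlapping groups. Spp1, the gene of osteopontin, ran from 138.3 to 213.8 CPM in wild-type and from 140 to 427.6 in knockout, overlapping.

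Cytoplasmic linkers and activators (22 tested) had 13 positive and 9 negative log2 changes (median 0.04). Parvg, the parvin of blood cells, had 1.972, 1.85 and 2.623 CPM in wild-type and 3.295, 3.281 and 3.536 in knockout, without overlap (log2 0.65 ± 0.22, edgeR adjusted p = 0.456). Log2 changes were 0.34 ± 0.15 for Apbb1ip, whose product brings talin to integrins in white blood cells, and 0.25 ± 0.17 for Fermt3, the blood cell kindlin. Rap1a, a small GTPase that activates integrins, ran from 148.8 to 179.7 CPM in wild-type and lower, from 116.7 to 141.2, in all knockout libraries (log2 −0.32 ± 0.14, edgeR adjusted p = 0.611).

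Counter-receptors of leukocyte integrins (7 tested, 4 positive and 3 negative, median 0.05) were led by Vcam1, the ligand of alpha 4 integrins. It had 6.902, 6.879 and 6.458 CPM in wild-type and 12.08, 7.825 and 10.93 in knockout, without overlap (log2 0.61 ± 0.20, edgeR adjusted p = 0.423). Icam1 and Icam2, ligands of LFA-1, had log2 changes of 0.32 ± 0.19 and 0.05 ± 0.19, and Thy1 of 0.34 ± 0.26. Basement membrane partners of laminins (12 tested, 7 positive and 5 negative, median 0.04) had 0 genes with separated groups. Their smallest p belonged to Col18a1 (log2 0.35 ± 0.16, edgeR adjusted p = 0.611), and Nid1, Nid2 and Dag1, genes of the nidogens and dystroglycan that tie laminins to collagen IV and to the cell, had log2 changes of 0.37, 0.23 and 0.23.

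TCF23 is a basic helix-loop-helix protein, and many proteins of this class bind a short core, the E-box, written CANNTG. Whether TCF23 itself binds it is not shown by these data. The windows around the start sites of the genes with separated groups were searched for the E-box. It was read on both strands, where it is its own reverse complement. RefSeq sequences (build GRCm38.p6, 250 bases before to 50 after the start) matched 23 of the 37 genes by symbol, with 26 windows in all, and 5 of the 8 separated genes were among them. They are printed 5′ to 3′ on the strand of the gene with E-boxes in capitals.
Itga10 (chr3:96645334-96645633, plus strand): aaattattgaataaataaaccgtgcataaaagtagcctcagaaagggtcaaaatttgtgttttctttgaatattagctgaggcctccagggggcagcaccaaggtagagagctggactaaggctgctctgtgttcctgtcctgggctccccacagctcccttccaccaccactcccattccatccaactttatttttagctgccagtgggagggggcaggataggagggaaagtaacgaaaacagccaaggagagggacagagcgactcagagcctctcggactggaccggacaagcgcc
Itgax (chr7:128129300-128129599, plus strand): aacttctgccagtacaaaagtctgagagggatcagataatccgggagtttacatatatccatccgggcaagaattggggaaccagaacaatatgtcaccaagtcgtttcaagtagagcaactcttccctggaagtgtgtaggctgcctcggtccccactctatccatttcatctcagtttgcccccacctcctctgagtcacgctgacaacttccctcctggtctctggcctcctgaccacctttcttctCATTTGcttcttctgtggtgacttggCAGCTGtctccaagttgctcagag
Itgb7 (chr15:102231886-102232185, minus strand): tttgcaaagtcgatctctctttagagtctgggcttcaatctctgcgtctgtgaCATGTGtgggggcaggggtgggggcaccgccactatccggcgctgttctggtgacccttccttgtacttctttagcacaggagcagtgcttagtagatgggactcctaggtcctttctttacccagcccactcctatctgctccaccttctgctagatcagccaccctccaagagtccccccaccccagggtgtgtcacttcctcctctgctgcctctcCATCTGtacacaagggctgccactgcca
Itga11 (chr9:62677605-62677904, plus strand): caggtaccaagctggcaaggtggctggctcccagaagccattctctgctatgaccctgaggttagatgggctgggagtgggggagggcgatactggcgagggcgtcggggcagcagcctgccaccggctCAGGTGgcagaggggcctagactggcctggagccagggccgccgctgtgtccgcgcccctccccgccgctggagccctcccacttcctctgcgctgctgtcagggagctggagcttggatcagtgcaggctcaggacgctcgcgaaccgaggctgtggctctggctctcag
Lamb1 (chr12:31265043-31265342, plus strand): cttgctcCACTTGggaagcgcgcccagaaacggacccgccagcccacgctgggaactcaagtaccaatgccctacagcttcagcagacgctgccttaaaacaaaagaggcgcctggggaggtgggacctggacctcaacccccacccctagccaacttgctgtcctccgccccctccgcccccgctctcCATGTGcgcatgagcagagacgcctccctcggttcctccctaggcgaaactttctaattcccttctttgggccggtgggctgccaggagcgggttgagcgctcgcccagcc
The higher genes held 0 matches (Itga10), 2 (Itgax) and 2 (Itgb7), and the lower genes 1 (Itga11) and 2 (Lamb1). Of the 26 integrin and laminin windows 22 held at least 1 match, beside 72.3% of all 32851 windows of this length in the table. The CArG box, the binding motif of serum response factor in smooth muscle genes, was found in 2 of the 26 windows, one of Lama2 and one of Itgb6, and in 1.63% of all windows. A match is a string of letters only, and binding was not measured here.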

How the data were processed

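RNA was measured in 6 myometrium libraries. The authors deposited a count file per library, by Ensembl gene, and 1 table of normalized values. Tools listed in the submitters' processing notes, with no role or order, are HISAT2 2.2.1, HTSeq 0.9.1, FastQC 0.73 and DESeq2 2.11.40.7, with build mm10. The annotation release and strand setting of the counting are unknown here. The authors' deposited normalized signal was found to be each library's raw count multiplied by its own constant (0.804 to 1.26). It supplied symbols and mm10 positions, with starts printed counting from 1.

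The test of genotype on the counts used edgeR 4.0.16 in R 4.3.3 (filterByExpr, TMM, quasi-likelihood fit of genotype, Benjamini-Hochberg adjusted p under 0.05 over 19599 genes, biological coefficient of variation 26.3%). Log2 changes are given ± SE. Exon lengths and overlaps came from GENCODE M21: 20 of the 37 genes overlap another gene, 3 of them (Itgad, Itgae, Lamb3) one with counts of at least 10% of their own. Overlapping genes absent from the count files could not be compared in this way. Among these, on the same strand, Gm42957 shares 1739 exon bases with Itga10, Gm49368 3450 with Itgam and Gm49395 685 with Itga1. On the opposite strand B230344G16Rik shares 537 with Itgb4. The members and gene lists were chosen with earlier results of these data known. Named are all integrins and laminins with a mean CPM of at least 1, the leukocyte integrins at any level, and up to 4 genes with the smallest p from each pathway list. Lamc3, Fn1 and Spp1 fall outside this rule and were added after their values were seen. The values of 1 laminin gene, which stays in all counts and medians, are not reported here.

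No library was a repeat of another, since pairs within a group had chi-square values of 35.3 to 232 per degree of freedom. Libraries with the same replicate number in their titles deviated together (r = 0.147, 0.196 and 0.217 across genes, against −0.223 to 0.0611 for other pairs), so the number was used as a block in an alternative fit. Also tried were upper-quartile and RLE scaling, 2 other filters, DESeq2 1.42.0, limma 3.58.1 (voom, and log2 of the deposited values plus 1), a threshold of 0.1 and leaving out each library. The unblocked edgeR, DESeq2 and limma fits were each tested on simulated counts with known changes. Those counts varied equally in both genotypes. In the data the median coefficient of variation was 9.74% in wild-type and 19.3% in knockout (genes with a mean CPM of at least 1). The simulation therefore cannot show how the fits behave under such unequal spread.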

Additional observations from a re-analysis of the deposited data

How the results depend on the processing

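Under each alternative run, 0 integrin or laminin genes were called lower, and 0 higher except with DESeq2, which called 3. Over all genes, calls higher and lower numbered 4 and 8 with upper-quartile scaling, 47 and 34 with no filter on low counts, and 248 and 138 with DESeq2. Adding the replicate block gave 2 genes called higher and 5 lower, and the integrin and laminin genes with an unadjusted p under 0.05 numbered 6 on the higher side and 3 on the lower, with 0 of them past the adjusted threshold. Leaving out 1 library gave 0 to 3 genes higher and 1 to 4 lower over all genes, 1 lower without wild-type replicate 1 or 2 and 3 higher without knockout replicate 3. It gave 5 to 9 integrin and laminin genes with separated groups on the higher side and 3 to 7 on the lower, fewer libraries making separation easier. At an unadjusted p under 0.05 the lower genes numbered 0 to 4 (0 without wild-type replicate 1 or knockout replicate 1, 4 without knockout replicate 2), and 1 with a stricter count filter. The log2 changes of 4 genes had the other sign under limma-voom, limma on deposited values and the replicate block, in that order: Itga1 (−0.063, −0.058, −0.081), Itgb1 (−0.021, −0.010, −0.009), Itga6 (−0.005, −0.023, −0.017) and Lamb3 (−0.063, −0.055, −0.046). The cause was not tested. Leaving out 1 library, log2 changes ran across 0 for Itga1 (−0.703 to 0.576), Itga9 (−0.178 to 0.19), Itgb1 (−0.294 to 0.297), Itgb5 (−0.115 to 0.17), Itga2b (−0.309 to 0.013), Itgam (−0.124 to 0.293), Itga6 (−0.427 to 0.374), Itgb4 (−0.744 to 0.006), Lama4 (−0.19 to 0.242), Lama3 (−0.634 to 0.281), Lamb3 (−0.518 to 0.49), Lama1 (−1.053 to 0.141), Lamb2 (−0.096 to 0.588) and Icam2 (−0.091 to 0.179). For Itgb3 they stayed within −1.204 to −0.578 and for its share of beta chains within −5.3 to −4.49 percentage points. That share differed by −6.49 points when taken by counts, an alternative chosen after seeing the data. Counts of 5 to 53 per library limit Lamc3.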
